A study of Homo sapiens with 16 samples.

Results

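The 8 genes described here, MDM4, DAXX, GMPS, TRIM27, TRIP12, RNF168, PHF8 and EP300, encode known binding partners or substrates of the deubiquitinase USP7. They were taken by gene symbol from the count table, where all 8 were found among 57820 genes, and their RNA levels were followed over 8 groups and set against the level of USP7. Ribosomal RNA-depleted total RNA was sequenced from Jurkat and HSB-2, established human T-cell acute lymphoblastic leukaemia (T-ALL) lines that are both labelled TAL1+, that is, with aberrant activation of the transcription factor TAL1. Each line was measured as wild-type cells, as cells given a scrambled control, and as cells with a hairpin RNA that targets USP7, of which there were 2, shRNA-4057 and shRNA-4058. Each of these groups had 2 libraries. The labels call the control a scrambled siRNA in 1 field and a scramble shRNA in the design text, so its exact form is not settled here. Per the study's methods, hairpins were delivered by lentivirus and transduced cells were kept by a fluorescence sort or by puromycin, which limits the wild-type cells as a match for the other groups, and both lines carry intact USP7. The labels do not say whether the 2 libraries of a group came from separate cultures. The p-values for single hairpins, controls and line differences by hairpin thus measure the spread between these libraries only, which may be technical. Pooled fits also count the difference between the hairpins as error, and slopes the group differences that do not follow USP7. Both still take the libraries of a group as independent.

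USP7 removes ubiquitin from other proteins and so protects them from the proteasome or changes what they bind. Among its best known clients is the ubiquitin ligase MDM2, and it also binds the MDM2 relative MDM4 and the adaptor DAXX. These contacts act on protein, so the RNA levels given here say how much message each partner gene had and nothing of the amount or ubiquitin state of its protein. Among the other members, GMPS makes GMP and forms a complex with USP7, TRIM27, TRIP12 and RNF168 are ubiquitin ligases, PHF8 removes methyl groups from histones, and EP300 is an acetyltransferase of histones.

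In coordinates of GRCh37, the build of the count table, the members lie on chromosomes 1 (MDM4, 204485507 to 204527248, plus strand), 2 (TRIP12, 230628553 to 230787955, minus strand), 3 (GMPS, 155588439 to 155661809, plus strand, and RNF168, 196195654 to 196230639, minus strand), 6 (TRIM27, 28870779 to 28891765, and DAXX, 33286335 to 33290793, both minus strand), 22 (EP300, 41488596 to 41576081, plus strand) and X (PHF8, 53963109 to 54075391, minus strand). All are protein-coding, and counts cover their exons. In the gene annotation used here, 14.3% of the exonic bases of DAXX are shared with another protein-coding gene on the same strand, so that part of its count cannot be assigned with certainty, while antisense genes cover 1.5% of RNF168 and 0.9% of EP300.

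RefSeq promoter windows of build GRCh38.p14, from 250 bases before to 50 bases after a start site, were held for 6 members. The windows of MDM4, RNF168 and PHF8 are printed because MDM4 RNA was lower than in scrambled with both hairpins in both lines, while RNF168 and PHF8 had RNA changes of opposite sign in the lines. For PHF8 the window with the highest GC content of its 3 is given. The study concerns E proteins, transcription factors that bind the E-box CANNTG, and the windows were searched on both strands for this motif and for its form CAGNTG, whose matches it includes. The core of sites for ETS factors, CCGGAAG, was searched as well. The last motif was the CCAAT box, and no matches to different motifs overlapped in these windows apart from the E-box forms. Capitals mark every match to an E-box, the ETS core or the CCAAT box.
MDM4, chr1:204516156-204516455, plus strand: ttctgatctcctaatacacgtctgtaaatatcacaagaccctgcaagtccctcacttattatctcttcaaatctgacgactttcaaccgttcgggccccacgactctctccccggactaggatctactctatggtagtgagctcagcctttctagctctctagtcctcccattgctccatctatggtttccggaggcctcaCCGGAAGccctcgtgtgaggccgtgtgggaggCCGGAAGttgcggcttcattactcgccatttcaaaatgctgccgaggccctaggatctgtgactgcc
RNF168, chr3:196503719-196504018, minus strand: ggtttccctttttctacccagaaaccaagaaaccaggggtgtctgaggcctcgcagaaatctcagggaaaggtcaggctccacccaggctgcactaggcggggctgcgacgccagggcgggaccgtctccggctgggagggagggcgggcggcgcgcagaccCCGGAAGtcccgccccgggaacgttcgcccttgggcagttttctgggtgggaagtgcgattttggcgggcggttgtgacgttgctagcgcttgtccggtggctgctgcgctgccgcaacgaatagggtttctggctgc
PHF8, chrX:54044424-54044723, minus strand: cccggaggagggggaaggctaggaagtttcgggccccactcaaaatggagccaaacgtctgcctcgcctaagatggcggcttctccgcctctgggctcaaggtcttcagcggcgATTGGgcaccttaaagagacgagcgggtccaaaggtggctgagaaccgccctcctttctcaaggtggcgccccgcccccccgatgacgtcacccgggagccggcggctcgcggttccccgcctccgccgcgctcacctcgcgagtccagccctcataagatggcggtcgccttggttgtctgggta
None of these 3 windows held CANNTG, a motif found in 68.7% of 35116 RefSeq promoter windows of this length. The MDM4 window held 2 matches to the ETS core and the RNF168 window held 1, against 10.3% of all windows with at least 1 match. The PHF8 window held 1 CCAAT box, found in 34.6% of windows, and the form CAGNTG was present in 49.9%. These are matches of letters and not sites shown to be bound. Over the other windows of members, TRIP12 had 2, 2 and 1 E-box matches in its 3 windows, the remaining PHF8 windows had 2 and 1, and GMPS and EP300 had 0.

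Libraries held 76602847 to 235467749 counts, and the members drew 5557 (TRIM27) to 94527 (RNF168) counts per library, so none passed near a filter on low counts and all 8 entered every test. Levels are given as CPM, counts scaled to library size, after correction by the trimmed mean of M values (TMM), which allows for library composition. Genes that mark T cells were present in both lines (CD3D 243 to 419 CPM in Jurkat and 128 to 262 CPM in HSB-2), except that CD2 stood at 0.785 to 4.96 CPM in HSB-2, and HBB and COL1A2 were at 0 in all 16 libraries. Summed levels were at most 0.423 CPM for 5 myeloid markers, 0.785 CPM for 3 erythroid markers and 11.3 CPM for 4 fibroblast and epithelial markers. The B-cell gene CD79A reached 21.5 to 64.3 CPM in Jurkat. The summed level of 9 T-lineage markers also moved with the groups. In Jurkat it was 2898 to 2970 CPM in scrambled, 2686 to 2730 CPM in wild-type and 2338 to 2598 CPM in shRNA libraries. In HSB-2 it was 2836 to 2908 CPM in scrambled, 3266 to 3283 CPM in wild-type and 3536 to 3983 CPM in shRNA libraries. In Jurkat the sum of 5 B-lineage markers was 61.2 to 64.6 CPM in scrambled, 35.4 to 36.1 CPM in wild-type and 21.9 to 22.9 CPM in shRNA libraries. For HSB-2 this sum was 1.17 to 1.26 CPM in scrambled, 3.20 to 3.22 CPM in wild-type and 3.40 to 4.62 CPM in shRNA libraries. The part of these shifts in the results for the members was not tested, and in such bulk libraries fewer cells with a message and less message per cell cannot be told apart.

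USP7 itself was 396 and 386 CPM in wild-type Jurkat, 384 and 387 CPM in scrambled, 139.96 and 145 CPM with shRNA-4057 and 244 and 242 CPM with shRNA-4058. The HSB-2 groups, taken in the same order, gave 237 and 243, 227 and 220.1, 144 and 149 and 162 and 156 CPM. Every shRNA library lay below every control library of its line. Relative to scrambled, USP7 RNA stood at 37.03% and 63.0% in Jurkat and at 65.5% and 71.0% in HSB-2 with shRNA-4057 and shRNA-4058. The log2 difference between the hairpins was -0.77 (SE 0.035) in Jurkat and -0.12 (SE 0.035) in HSB-2.

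**Figure D1:**
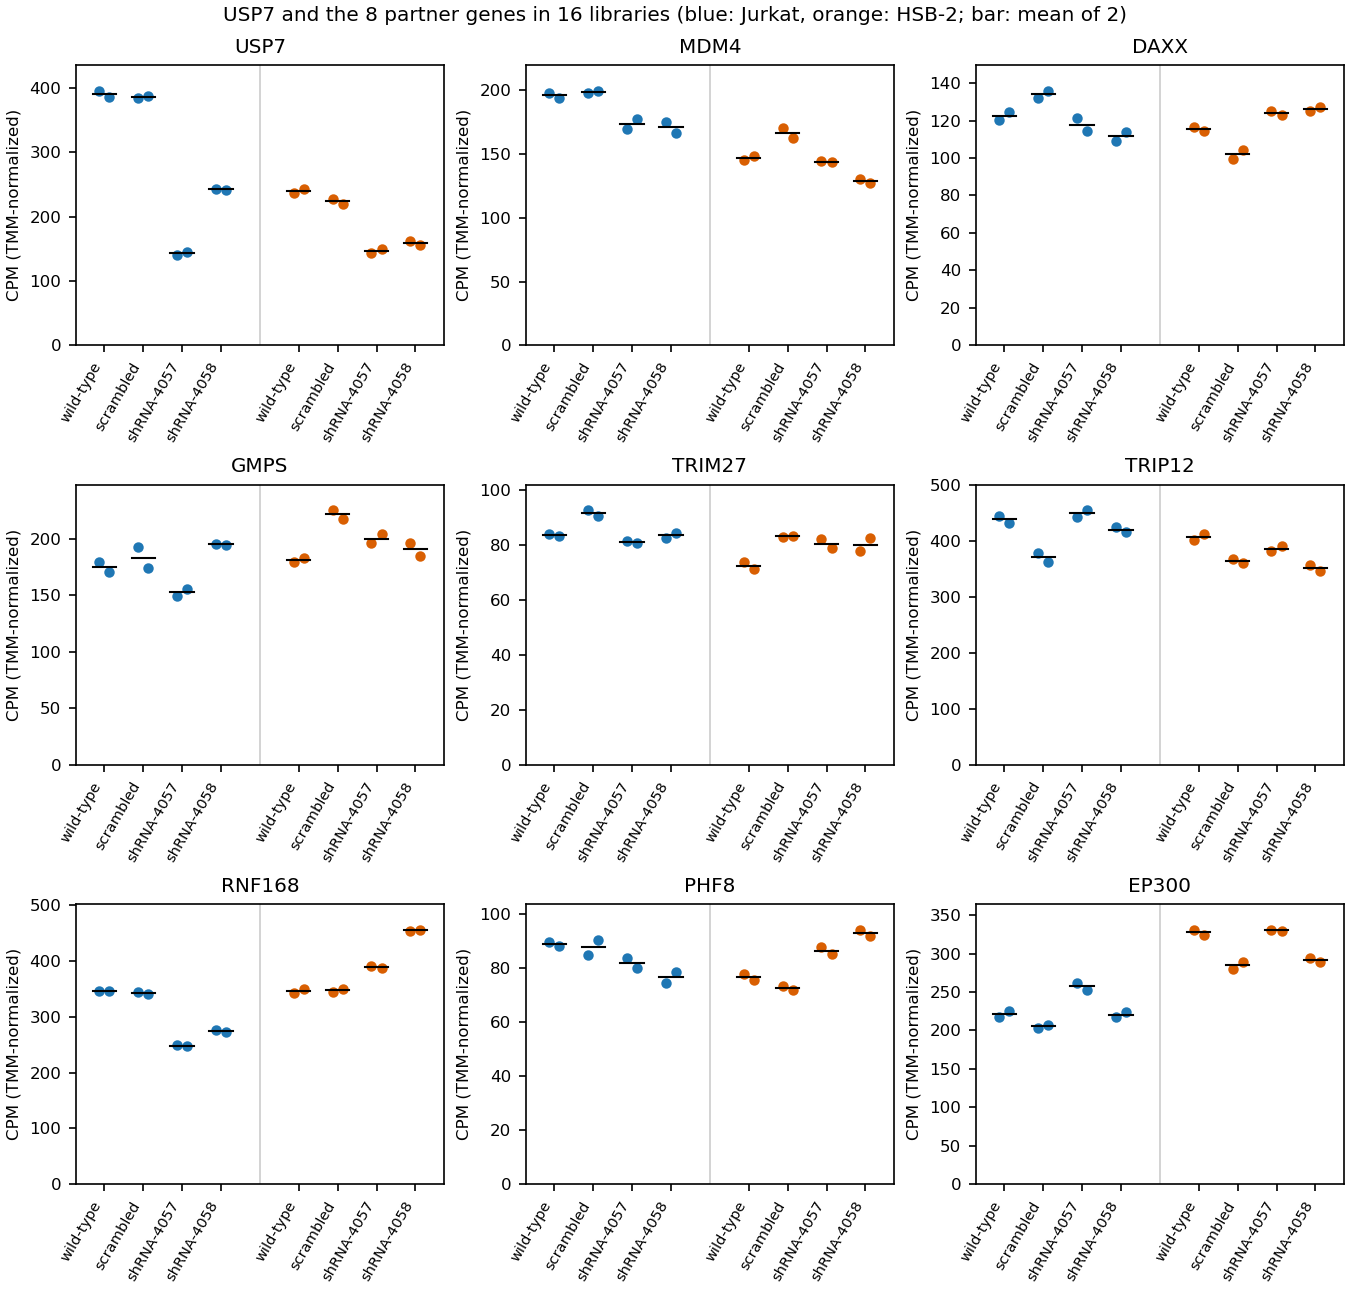
Points are TMM-normalized CPM of USP7 and the 8 partner genes in each of the 16 libraries, with Jurkat in blue, HSB-2 in orange and a bar at the mean of the 2 libraries of a group. RNF168 falls from 340.5 to 347 CPM in Jurkat controls to 247 to 276 CPM in Jurkat shRNA libraries, and stands at 387 to 456 CPM in HSB-2 shRNA libraries.

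Over all 16 libraries RNF168 had the widest range of the members, though with shRNA-4057 in HSB-2 DAXX, PHF8, EP300 and MDM4 changed by more than it did. RNF168 is the ligase that adds ubiquitin to histone H2A beside DNA breaks and whose protein USP7 stabilizes. RNF168 RNA fell with both hairpins in Jurkat and rose with both in HSB-2. Jurkat gave 347 and 346 CPM in wild-type, 345 and 340.5 CPM in scrambled, 249 and 247 CPM with shRNA-4057 and 276 and 273 CPM with shRNA-4058. HSB-2 gave 342 and 349, 344 and 350.2, 390.4 and 387 and 455 and 456 CPM in the same order. The 8 control libraries of both lines lay between 340.5 and 350.2 CPM, the Jurkat shRNA libraries were all below them and the HSB-2 shRNA libraries were all above them. With edgeR's quasi-likelihood test on all 16 libraries, the log2 fold change against scrambled was -0.47 (SE 0.030, adjusted p = 4.0e-12) and -0.32 (SE 0.029, adjusted p = 3.2e-09) in Jurkat, and 0.16 (SE 0.029, adjusted p = 7.0e-05) and 0.39 (SE 0.029, adjusted p = 6.4e-11) in HSB-2. The scrambled libraries did not differ detectably from wild-type (-0.016, adjusted p = 0.76, and 0.0072, adjusted p = 0.90), and neither did the controls of the lines (-0.0072, 95% interval -0.050 to 0.036, adjusted p = 0.76). Against wild-type, RNF168 stood at 71.6% and 79.1% in Jurkat and at 112% and 132% in HSB-2.

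PHF8, an X-linked demethylase of histone lysines that USP7 stabilizes, moved the same ways. In Jurkat it was 89.4 and 87.9 CPM in wild-type, 84.7 and 90.3 in scrambled, 83.7 and 79.8 with shRNA-4057 and 74.3 and 78.6 with shRNA-4058. In HSB-2 it was 77.8 and 75.5, 73.2 and 71.6, 87.6 and 85.0 and 94.1 and 91.7 CPM. All shRNA libraries were below all controls in Jurkat, by 1 CPM at the closest, and above all controls in HSB-2. PHF8 rose with both hairpins in HSB-2, by 0.25 (SE 0.043, adjusted p = 3.5e-05) and 0.36 (SE 0.043, adjusted p = 1.7e-07) on the log2 scale. In Jurkat it fell with shRNA-4058, to -0.20 (SE 0.043, adjusted p = 6.4e-04) on the log2 scale, and the value for shRNA-4057, -0.10 (SE 0.043, adjusted p = 0.063), did not pass. That value passed with DESeq2, -0.11 (adjusted p = 0.040), and with its size factors in edgeR, -0.11 (adjusted p = 0.045). It also passed with an offset for GC content and exonic length, -0.083 (adjusted p = 0.033). With 1 library left out it ran from -0.15 to -0.028. Against wild-type, PHF8 in Jurkat was at 92.2% (adjusted p = 0.037) with shRNA-4057 and at 86.2% (adjusted p = 3.6e-04) with shRNA-4058. Without the second Jurkat scrambled library the value for shRNA-4058 was -0.11 (adjusted p = 0.13) and no longer passed. No difference between scrambled and wild-type passed in either line (adjusted p = 0.81 in Jurkat and 0.15 in HSB-2).

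DAXX, a histone H3.3 chaperone that also joins MDM2 and USP7 in 1 complex, moved with the same signs, but its values depended on the control they were set against. Jurkat gave 120.3 and 124 CPM in wild-type, 132 and 136 in scrambled, 121 and 114 with shRNA-4057 and 109 and 114 with shRNA-4058. HSB-2 gave 117 and 115, 99.7 and 105, 125 and 123 and 125 and 127 CPM. The scrambled libraries lay farthest out in both lines, highest in Jurkat and lowest in HSB-2, with wild-type between them and the shRNA libraries or overlapping these. Against scrambled the log2 fold changes were -0.19 (SE 0.040, adjusted p = 4.0e-04) and -0.26 (SE 0.040, adjusted p = 7.2e-06) in Jurkat and 0.28 (SE 0.040, adjusted p = 3.3e-06) and 0.30 (SE 0.040, adjusted p = 6.9e-07) in HSB-2. Scrambled differed from wild-type by 0.13 (SE 0.040, adjusted p = 0.016) in Jurkat and -0.18 (SE 0.040, adjusted p = 9.0e-04) in HSB-2. Against wild-type, DAXX was at 96.2% (adjusted p = 0.31) and 91.2% (adjusted p = 0.012) in Jurkat, and at 107% (adjusted p = 0.065) and 109% (adjusted p = 0.015) in HSB-2. The exons of DAXX have a GC content of 54.8%, the highest of the 8 members, and with an offset for GC content and exonic length its pooled fold change shrank to -0.066 (adjusted p = 0.30) in Jurkat and 0.10 (adjusted p = 0.10) in HSB-2.

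MDM4, the relative and binding partner of MDM2, was the member called lower than scrambled with both hairpins in both lines. Jurkat libraries were at 198 and 194 CPM in wild-type, 198 and 199.8 in scrambled, 169.7 and 178 with shRNA-4057 and 175 and 167 with shRNA-4058. HSB-2 libraries were at 145 and 149, 171 and 162, 145 and 144 and 130.4 and 128 CPM. In each line the 4 shRNA libraries were below the 4 controls, in HSB-2 by less than 1 CPM where shRNA-4057 came closest to wild-type. The log2 fold change against scrambled was -0.19 (SE 0.037, adjusted p = 1.2e-04) and -0.22 (SE 0.037, adjusted p = 3.5e-05) in Jurkat and -0.21 (SE 0.037, adjusted p = 5.9e-05) and -0.37 (SE 0.037, adjusted p = 1.2e-08) in HSB-2. Scrambled HSB-2 cells had more MDM4 than wild-type (0.18, SE 0.037, adjusted p = 4.7e-04), and against wild-type the HSB-2 value for shRNA-4057 was 98.0% (adjusted p = 0.63) and that for shRNA-4058 87.8% (adjusted p = 2.1e-04). In Jurkat both hairpins stayed below wild-type, at 88.5% and 87.2% (adjusted p = 5.6e-04 and 1.6e-04).

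EP300, the acetyltransferase p300, went up mainly with shRNA-4057. Jurkat gave 218 and 226 CPM in wild-type, 204 and 208 in scrambled, 262 and 253 with shRNA-4057 and 217 and 224 with shRNA-4058. HSB-2 gave 330.3 and 325, 281 and 289.6, 331 and 329 and 295 and 289 CPM. Against scrambled, shRNA-4057 gave log2 fold changes of 0.32 (SE 0.034, adjusted p = 2.1e-08) in Jurkat and 0.21 (SE 0.033, adjusted p = 1.2e-05) in HSB-2, and shRNA-4058 gave 0.10 (SE 0.034, adjusted p = 0.018) and 0.033 (SE 0.033, adjusted p = 0.43). The shRNA-4058 call in Jurkat was lost in 2 of 16 fits that left out 1 library (adjusted p up to 0.15). In HSB-2 the shRNA-4058 value passed with DESeq2, 0.094 (adjusted p = 0.016), and with its size factors in edgeR, 0.094 (adjusted p = 0.023). The hairpins themselves differed in both lines, by 0.22 (SE 0.034, adjusted p = 1.0e-05) and 0.18 (SE 0.033, adjusted p = 2.9e-04). Scrambled libraries were below wild-type in both lines (-0.11 and -0.20), so that against wild-type the rise with shRNA-4057 passed in Jurkat (116%, adjusted p = 1.7e-05) and not in HSB-2 (101%, adjusted p = 0.86), where shRNA-4058 lay below wild-type (89.0%, adjusted p = 2.2e-04).

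For the remaining 3 members, TRIM27, TRIP12 and GMPS, several values depended on the control. TRIM27, a ligase whose protein USP7 keeps stable, was 83.9 and 83.0 CPM in wild-type Jurkat, 92.5 and 90.3 in scrambled, 81.4 and 80.8 with shRNA-4057 and 82.5 and 84.4 with shRNA-4058. It fell with both hairpins against scrambled, to -0.17 (SE 0.040, adjusted p = 9.0e-04) and -0.13 (SE 0.040, adjusted p = 0.0091) on the log2 scale, and stood at 97.2% and 99.98% of wild-type (adjusted p = 0.46 and 1.0). The shRNA-4058 call was lost in 5 of 16 fits that left out 1 library (adjusted p up to 0.11) and with the offset for GC content and exonic length, -0.080 (adjusted p = 0.055). In HSB-2 it was 73.5 and 71.3 CPM in wild-type, 82.9 and 83.2 in scrambled, 82.0 and 78.7 with shRNA-4057 and 77.6 and 82.3 with shRNA-4058. No HSB-2 change against scrambled passed, with 95% intervals of -0.13 to 0.034 and -0.14 to 0.025, while against wild-type both hairpins were higher (111% and 110.2%, adjusted p = 0.0060 and 0.0065).

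TRIP12, a HECT-type ligase that limits RNF168 protein, had 445 and 432 CPM in wild-type Jurkat, 379 and 362 in scrambled, 443 and 455 with shRNA-4057 and 426 and 415 with shRNA-4058. The Jurkat scrambled pair was the low group. TRIP12 was higher than scrambled with both hairpins (0.28, SE 0.033, adjusted p = 2.1e-07 and 0.18, SE 0.033, adjusted p = 8.0e-05), and no difference from wild-type passed (102% and 95.9%, adjusted p = 0.46 and 0.17). In HSB-2 the levels were 401 and 413 CPM in wild-type, 368 and 360.1 in scrambled, 382 and 390.3 with shRNA-4057 and 356 and 346 with shRNA-4058, with log2 fold changes of 0.084 (SE 0.033, adjusted p = 0.045) and -0.053 (SE 0.033, adjusted p = 0.19) against scrambled. Against wild-type, shRNA-4058 was lower there (86.3%, adjusted p = 1.3e-05).

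GMPS, GMP synthetase, had estimates of opposite sign for the 2 hairpins in Jurkat. Its levels were 179.7 and 171 CPM in wild-type, 193 and 174 in scrambled, 149.7 and 156 with shRNA-4057 and 196 and 195 with shRNA-4058. The shRNA-4057 pair was below all controls, the shRNA-4058 pair above them, and the scrambled pair was the most spread of the Jurkat groups. GMPS fell with shRNA-4057, to -0.26 (SE 0.044, adjusted p = 2.3e-05) on the log2 scale, while shRNA-4058 gave 0.090 (SE 0.044, adjusted p = 0.10), and the hairpins differed by -0.35 (SE 0.044, adjusted p = 8.0e-07). Against wild-type, GMPS in Jurkat was lower with shRNA-4057 (87.1%, adjusted p = 9.2e-04) and higher with shRNA-4058 (111%, adjusted p = 0.0075). In HSB-2 it was 179 and 183 CPM in wild-type, 226 and 218 in scrambled, 196 and 205 with shRNA-4057 and 196 and 185 with shRNA-4058. There scrambled stood above wild-type by 0.29 (SE 0.044, adjusted p = 1.1e-05), and both hairpins lay between these controls, with log2 fold changes of -0.15 (SE 0.044, adjusted p = 0.0086) and -0.22 (SE 0.044, adjusted p = 2.1e-04) against scrambled. The shRNA-4057 call was lost without the first scrambled or first shRNA-4057 library (adjusted p up to 0.11), with the offset, -0.064 (adjusted p = 0.072), and with DESeq2, -0.11 (adjusted p = 0.052). Without the second shRNA-4058 library the shRNA-4058 value was -0.10 (adjusted p = 0.12).

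**Figure D2:**
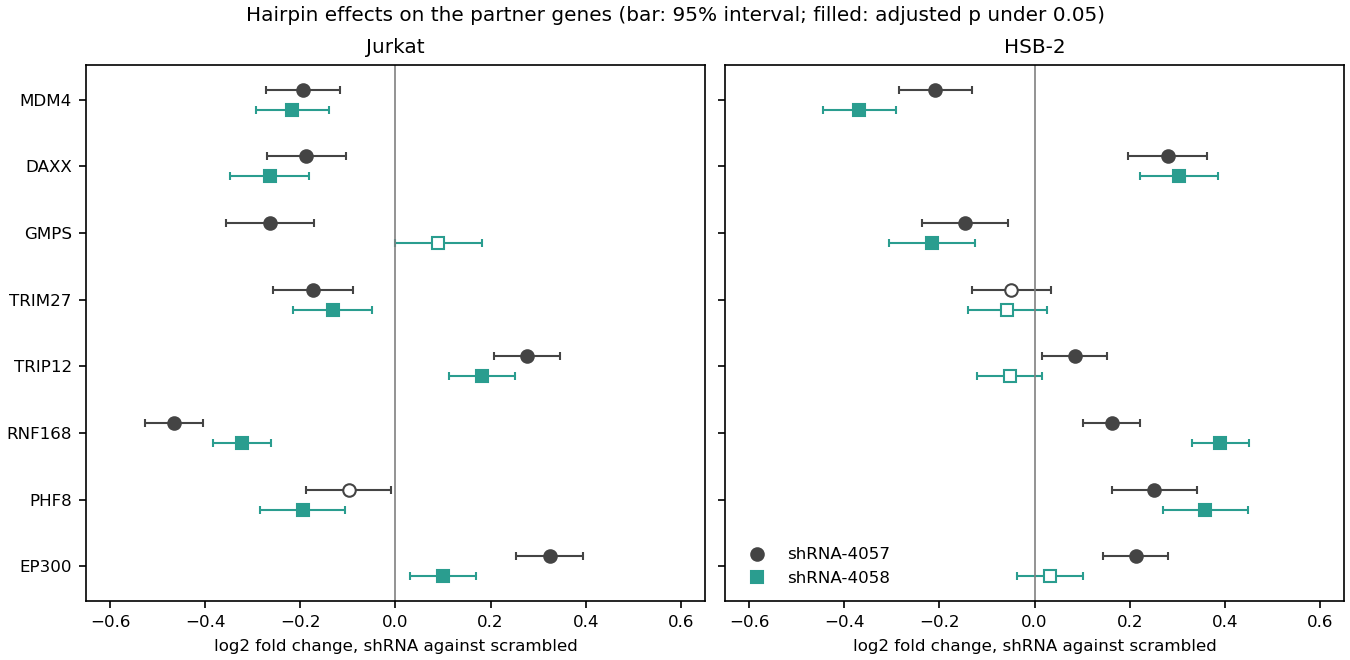
Each marker is the log2 fold change of a partner gene with 1 hairpin against the scrambled libraries of its line, from edgeR on 16 libraries, with its 95% interval, and filled markers have an adjusted p under 0.05. MDM4 and TRIM27 lie left of 0 in all 4 positions, all filled for MDM4 and filled in Jurkat alone for TRIM27. DAXX, RNF168 and PHF8 lie left of 0 in Jurkat and right of 0 in HSB-2.

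Counted over the members, shRNA-4057 changed 7 of 8 genes in Jurkat, 2 up and 5 down, where 50% of all tested genes were called (22.7% higher and 27.3% lower). With shRNA-4058 in Jurkat 7 of 8 changed, again 2 up and 5 down, beside 46.5% of all genes (19.7% and 26.7%). In HSB-2, shRNA-4057 changed 7 of 8, with 5 up and 2 down, beside 43.6% (21.9% and 21.7%), and shRNA-4058 changed 5 of 8, with 3 up and 2 down, beside 52.8% (26.6% and 26.2%). The TRIP12 call for shRNA-4057 in HSB-2 was lost in 9 of the 16 fits that left out 1 library (adjusted p up to 0.25). The all-gene shares also cover genes with far fewer counts than the members. With shRNA-4057 the median size of change over the members was 0.23 on the log2 scale in Jurkat and 0.19 in HSB-2, against 0.39 and 0.32 over all genes. With shRNA-4058 it was 0.19 in Jurkat and 0.26 in HSB-2, against 0.36 and 0.39. The contrasts of a line share its scrambled libraries. Both hairpins were called in 1 direction for 32% of all genes in Jurkat and 35.2% in HSB-2. MDM4 was called lower in all 4 contrasts, and 5.07% of all genes had calls of 1 direction throughout, and RNF168 and DAXX were called by both hairpins in opposite directions in the lines, as were 9.4% of all genes. The Jurkat shRNA libraries did not overlap scrambled for 7 members, all but GMPS (51.1% of all genes), and did not overlap the 4 control libraries for MDM4, RNF168 and PHF8 (28.5%). In HSB-2 the corresponding counts were 6, all but TRIP12 and EP300 (53.5%), and 4, namely MDM4, DAXX, RNF168 and PHF8 (30.9%). Against wild-type, 5 of 8 members were called with each hairpin in Jurkat (36.7% and 35.9% of all genes with shRNA-4057 and shRNA-4058), and 4 and 7 of 8 in HSB-2 (31.7% and 44%). With an offset for GC content and exonic length, the share of higher genes among all genes called for shRNA-4058 in Jurkat went from 42.5% to 54.3%, and the members called went from 7 to 6.

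With both hairpins pooled into 1 group of 4 libraries against the 2 scrambled libraries, 4 of 8 members passed in Jurkat, 1 up and 3 down, beside 28% of all tested genes (12.4% higher and 15.7% lower). In HSB-2 5 of 8 passed, 3 up and 2 down, beside 38.1% (20.3% and 17.8%). The Jurkat genes were RNF168 (-0.37, SE 0.067, adjusted p = 0.0069), TRIP12 (0.25, SE 0.059, adjusted p = 0.017), DAXX (-0.20, SE 0.061, adjusted p = 0.044) and MDM4 (-0.18, SE 0.057, adjusted p = 0.048). The MDM4 call was lost without any 1 of the shRNA libraries, and the DAXX call without the second shRNA-4057 or either shRNA-4058 library. MDM4 did not pass with DESeq2, -0.18 (adjusted p = 0.057), or without a filter on low counts, -0.16 (adjusted p = 0.145). Without that filter DAXX was -0.18 (adjusted p = 0.12), and with the offset TRIP12 was 0.18 (adjusted p = 0.057). The HSB-2 genes were PHF8 (0.31, SE 0.057, adjusted p = 0.0028), DAXX (0.30, SE 0.051, adjusted p = 0.0019), MDM4 (-0.28, SE 0.067, adjusted p = 0.0099), RNF168 (0.28, SE 0.079, adjusted p = 0.020) and GMPS (-0.18, SE 0.055, adjusted p = 0.032). This GMPS call was lost without the first shRNA-4057 or either shRNA-4058 library, and with the offset, -0.080 (adjusted p = 0.13). The pooled fit counts the difference between the hairpins as error, and EP300 in Jurkat, at 0.24 (SE 0.086, adjusted p = 0.073), did not pass there, though it did with the offset, 0.25 (adjusted p = 0.041). The median size of change over the members was 0.19 on the log2 scale in Jurkat and 0.23 in HSB-2, against 0.33 over all tested genes in each line. Leaving out either Jurkat scrambled library left 0 of 8 members called (RNF168 adjusted p up to 0.070), and leaving out either HSB-2 scrambled library left DAXX and PHF8.

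The lines were compared by testing the difference of their hairpin effects, HSB-2 minus Jurkat. In the pooled fit of 12 libraries this difference passed for RNF168, 0.68 (SE 0.11, adjusted p = 4.9e-04), DAXX, 0.52 (SE 0.080, adjusted p = 2.7e-04), and PHF8, 0.46 (SE 0.093, adjusted p = 0.0020), or 3 of 8 members beside 37.7% of all genes. Taken hairpin by hairpin, the same 3 genes passed with shRNA-4057 (0.63, 0.47 and 0.35) and with shRNA-4058 (0.71, 0.57 and 0.55). TRIP12 also passed with both (-0.19 and -0.23), and MDM4 (-0.15) and GMPS (-0.31) with shRNA-4058, giving 4 of 8 (all genes 46.7%) and 6 of 8 (all genes 55.6%). The MDM4 difference did not pass in 6 of 16 fits that left out 1 library (adjusted p up to 0.17), with the size factors of DESeq2 in edgeR, -0.10 (adjusted p = 0.12), with DESeq2, -0.10 (adjusted p = 0.14), or with the offset, -0.024 (adjusted p = 0.63). With wild-type as control, GMPS with shRNA-4058 was -0.078 (adjusted p = 0.33) and TRIP12 with shRNA-4057 -0.11 (adjusted p = 0.076). The GMPS difference with shRNA-4057 was 0.12 in the main fit (adjusted p = 0.13). It passed with DESeq2, 0.16 (adjusted p = 0.034), with the offset, 0.19, and against wild-type, 0.35. EP300 passed for both hairpins with the offset (-0.19 and -0.20) and against wild-type (-0.20 and -0.16). TRIM27 passed for shRNA-4057 with DESeq2, 0.17 (adjusted p = 0.011), and for both hairpins against wild-type (0.19 and 0.14). When wild-type libraries took the place of scrambled, the pooled difference was 0.71 (adjusted p = 0.0019) for RNF168 and 0.40 (adjusted p = 0.012) for PHF8, and 0.21 (adjusted p = 0.080) for DAXX. Taken by hairpin against wild-type, the line difference was 0.65 and 0.74 for RNF168, 0.29 and 0.49 for PHF8, and 0.15 (adjusted p = 0.038) and 0.26 (adjusted p = 6.8e-04) for DAXX, with 7 of 8 members called for shRNA-4057 and 6 of 8 for shRNA-4058 beside 34.2% and 44.9% of all genes. With an offset for GC content and exonic length the pooled difference from scrambled was 0.62 (adjusted p = 7.2e-04), 0.30 (adjusted p = 0.0053) and 0.17 (adjusted p = 0.056) for RNF168, PHF8 and DAXX, and the share of higher genes among all genes called went from 54.7% to 43.2%. The T-lineage marker sums given above moved the same ways, down in Jurkat and up in HSB-2 shRNA libraries, and their part in these differences was not tested. The depth of knockdown differed too: with shRNA-4057 USP7 fell to 37.03% of scrambled in Jurkat and 65.5% in HSB-2.

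**Figure D3:**
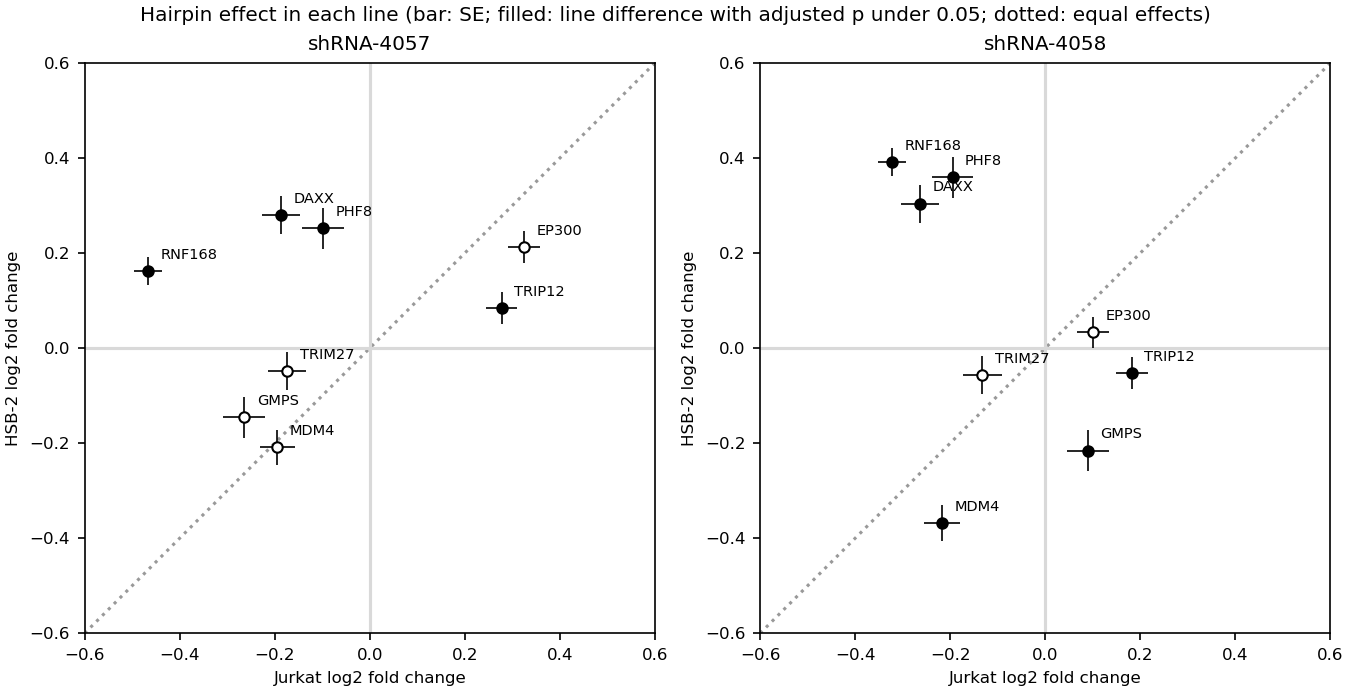
The log2 fold change against scrambled in HSB-2 (vertical axis) is set against that in Jurkat (horizontal axis) for each partner gene, with bars of 1 SE and filled points where the line difference had an adjusted p under 0.05. RNF168, DAXX and PHF8 stand left of 0 and above 0 with both hairpins, and MDM4 and TRIM27 lie below 0 on both axes with both hairpins.

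The hairpins reduced USP7 to different levels, which allowed the members to be compared between them within a line. In Jurkat, where shRNA-4057 left less USP7 than shRNA-4058, 4 of 8 members differed between the hairpins (all genes 33.9%). RNF168 was lower with shRNA-4057 (-0.14, SE 0.029, adjusted p = 4.1e-04), GMPS was lower as given above, and EP300 and TRIP12 were higher, TRIP12 by 0.10 (SE 0.033, adjusted p = 0.029). For MDM4 no difference passed, with a 95% interval of -0.054 to 0.10, nor for TRIM27 (-0.12 to 0.042), DAXX (-0.0057 to 0.16) or PHF8 (0.0073 to 0.19, adjusted p = 0.092). In HSB-2 also 4 of 8 differed (all genes 24.8%), namely RNF168 (-0.23, SE 0.029, adjusted p = 2.9e-06), EP300 as given above, MDM4 (0.16, SE 0.038, adjusted p = 0.0026) and TRIP12 (0.14, SE 0.033, adjusted p = 0.0036). There shRNA-4058, which left slightly more USP7, went with the higher RNF168 and the lower MDM4. Without the second HSB-2 shRNA-4058 library, the shallowest of the 16, MDM4, EP300 and TRIP12 no longer passed (adjusted p up to 0.19, 0.075 and 0.32), RNF168 did, and PHF8 came to pass. The Jurkat TRIP12 difference was lost in 5 of 16 such fits (up to 0.19). With the offset, the share of higher genes among all genes called in HSB-2 went from 42.3% to 53.3%.

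A slope of each member on the USP7 level, both on the log2 scale over the 8 libraries of a line, was fitted with edgeR. In Jurkat it passed for RNF168, which changed by 0.32 (SE 0.048, adjusted p = 0.0017) per log2 unit of USP7, and for EP300, with -0.20 (SE 0.050, adjusted p = 0.020), or 2 of 8 members beside 20.7% of all genes. In HSB-2 it passed for RNF168, -0.43 (SE 0.13, adjusted p = 0.045), and PHF8, -0.40 (SE 0.10, adjusted p = 0.026), or 2 of 8 beside 19.2%. The RNF168 slope was thus positive in Jurkat and negative in HSB-2. MDM4 had positive slopes in both lines, 0.12 (SE 0.050, adjusted p = 0.11) and 0.27 (SE 0.13, adjusted p = 0.16), that did not pass. The 8 libraries of a line are 4 groups of 2, so these slopes compare groups that differ in treatment as well as in USP7. The RNF168 slope in Jurkat passed without any 1 library (0.31 to 0.35). That in HSB-2 did not pass without either wild-type, scrambled or shRNA-4058 library (adjusted p up to 0.10), that of PHF8 did not without the second wild-type, either scrambled or either shRNA-4058 library (up to 0.066), and that of EP300 did not without either scrambled or shRNA-4057 library (up to 0.13).

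**Figure D4:**
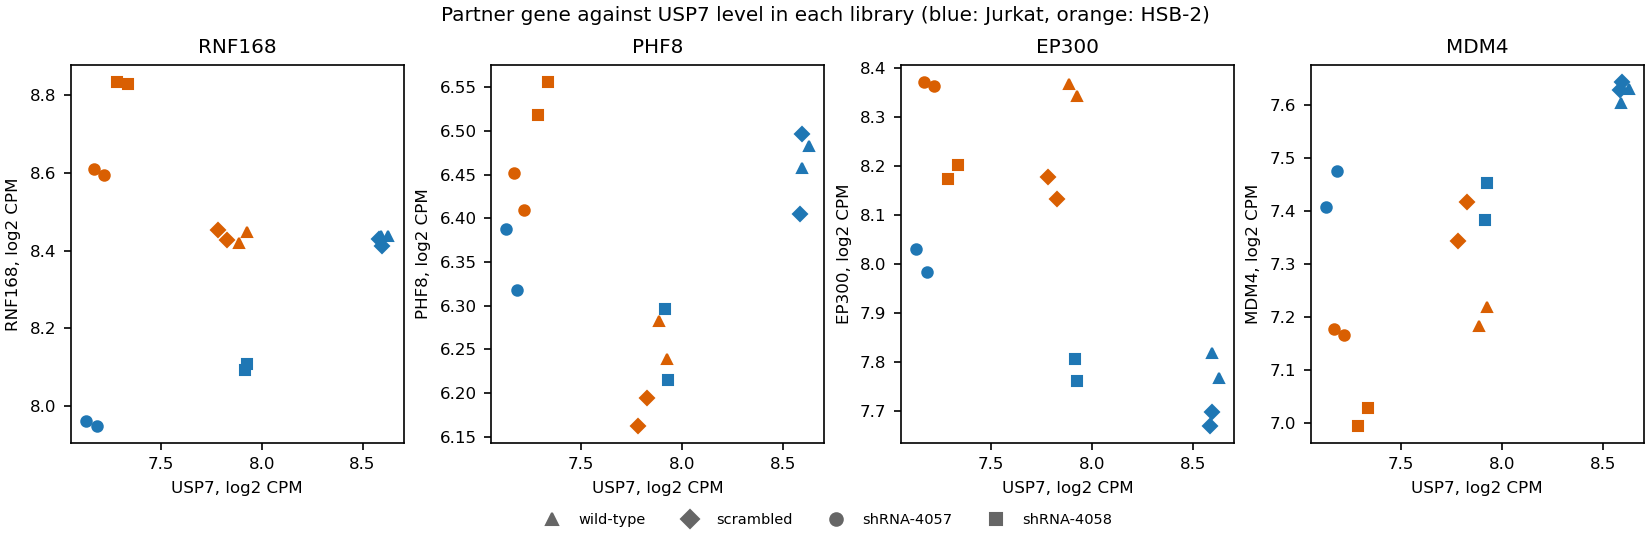
Each point is 1 library, with the log2 CPM of USP7 on the horizontal axis and that of RNF168, PHF8, EP300 or MDM4 on the vertical axis, Jurkat in blue, HSB-2 in orange and a symbol for each treatment. RNF168 rises with USP7 in Jurkat and falls with it in HSB-2, and the 8 control libraries share 1 level of RNF168 while their USP7 levels differ by line.

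Scrambled and wild-type libraries, which share the absence of a USP7 hairpin, differed for several members. The counts were 4 of 8 in Jurkat (all genes 25.9%) and 6 of 8 in HSB-2 (all genes 34.1%). TRIM27 was higher in scrambled in both lines (0.13 and 0.20 on the log2 scale), and TRIP12 (-0.24 and -0.16) and EP300 (-0.11 and -0.20) were lower in both. DAXX went up in Jurkat and down in HSB-2, and MDM4 and GMPS were called higher in HSB-2 alone, where the difference of these 2 effects between the lines was not tested. With the offset for GC content and exonic length, MDM4 (0.10, adjusted p = 0.0046) and GMPS (0.14, adjusted p = 4.3e-04) were also higher in scrambled Jurkat cells. The Jurkat DAXX difference was then 0.033 (adjusted p = 0.42). RNF168 and PHF8 passed in neither line. Without any 1 of the 4 Jurkat wild-type and scrambled libraries, 2 of 8 were called in Jurkat, with TRIM27 lost each time (adjusted p up to 0.12), DAXX lost without the first wild-type or second scrambled library (up to 0.19) and EP300 without the second wild-type or first scrambled library (up to 0.18). With wild-type as the control for the pooled shRNA libraries, RNF168 alone stayed called in Jurkat, -0.38 (adjusted p = 0.019), and RNF168, 0.28 (adjusted p = 0.030), and PHF8, 0.22 (adjusted p = 0.021), in HSB-2.

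**Figure D5:**
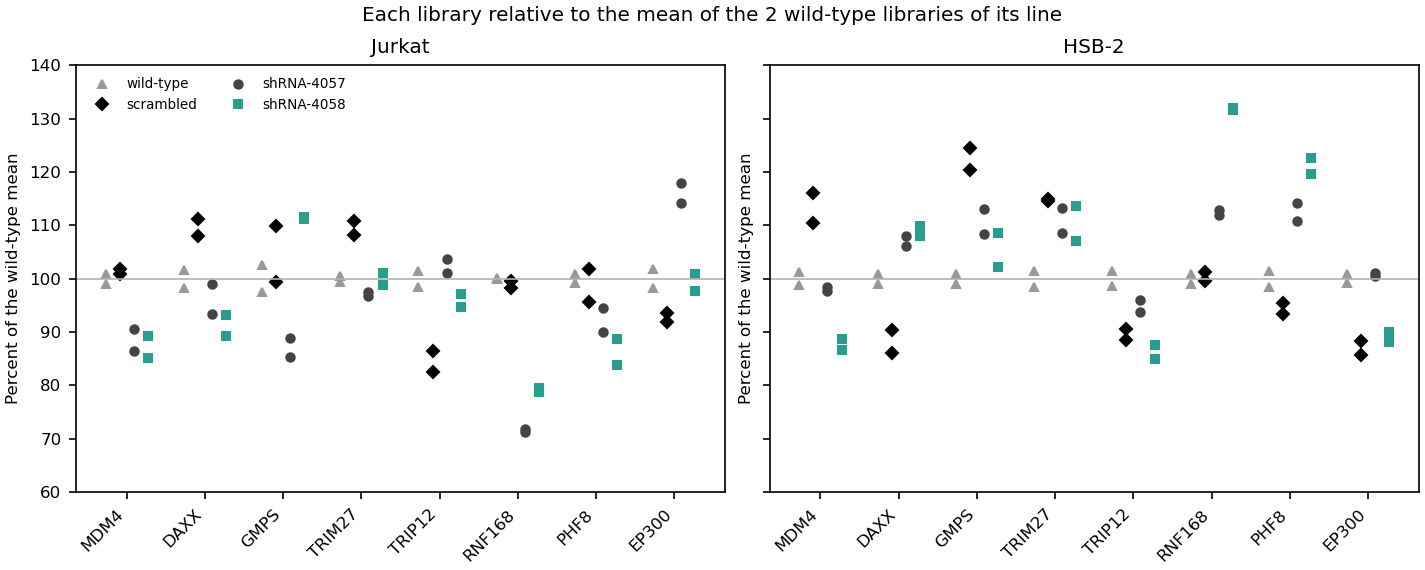
Every library is drawn as a percentage of the mean of the 2 wild-type libraries of its line, with symbols for wild-type, scrambled, shRNA-4057 and shRNA-4058. Scrambled libraries leave the line at 100% for TRIM27, TRIP12, EP300 and DAXX in both lines, and stay on it for RNF168, whose shRNA libraries lie near 72% and 79% in Jurkat and 112% and 132% in HSB-2.

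The lines differed at rest in most of these genes. Over the 4 control libraries of each line, Jurkat had more MDM4 (log2 difference 0.34, SE 0.026), PHF8 (0.24, SE 0.030), DAXX (0.24, SE 0.028), TRIM27 (0.17, SE 0.028) and TRIP12 (0.066, SE 0.024), and less EP300 (-0.52, SE 0.024) and GMPS (-0.16, SE 0.031). This made 7 of 8 members, while 77.4% of all genes differed. USP7 was higher in Jurkat by 0.74 (SE 0.024). Per kilobase of exon, wild-type Jurkat cells had the most message for RNF168 (64.8 CPM per kb), followed by DAXX (39.7), TRIP12 (32.0), GMPS (20.005), EP300 (19.0), MDM4 (17.8), TRIM27 (10.4) and PHF8 (8.77). In wild-type HSB-2 cells the order per kilobase was RNF168 (64.6), DAXX (37.5), TRIP12 (29.7), EP300 (28.0), GMPS (20.7), MDM4 (13.4), TRIM27 (9.07) and PHF8 (7.59). These lengths join the exons of all transcripts, so a gene with long, little used exons is placed too low.

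Ranked over the 8 groups by mean CPM, neighbouring groups were often not distinct. For RNF168 the order ran from HSB-2 shRNA-4058 through HSB-2 shRNA-4057, the 4 control groups and Jurkat shRNA-4058 to Jurkat shRNA-4057, and only the control groups overlapped their neighbours. For EP300 the 4 HSB-2 groups were all above the 4 Jurkat groups. For MDM4 the 4 Jurkat groups came first, with overlaps between the Jurkat controls, between the Jurkat hairpins, and between Jurkat shRNA-4058 and HSB-2 scrambled. For DAXX, GMPS and TRIM27, 4 of the 7 steps between neighbours were overlaps. The highest library stood above the lowest by 1.85-fold for RNF168, 1.63-fold for EP300, 1.57-fold for MDM4, 1.51-fold for GMPS, 1.36-fold for DAXX, 1.32-fold for TRIP12, 1.31-fold for PHF8 and 1.30-fold for TRIM27, against 2.83-fold for USP7.

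The genes most like each member were taken by Pearson's r of log2 CPM over the 16 libraries after the mean of each line was subtracted, among 10146 genes with at least 5 CPM on average in each line. RNF168 was most like HPS4 (r = 0.989), PLCG2 (0.981) and HDLBP (0.979), DAXX most like AURKB (0.983), NFKB2 (0.975) and PRRC2A (0.974), and PHF8 most like CIT (0.967), NBR1 (0.963) and RAB37 (0.963). The first matches were GLYR1 for EP300 (0.979), NFE2L2 for GMPS (0.969), LONRF1 for MDM4 (0.965), CENPF for TRIP12 (0.960), FOXD2-AS1 for TRIM27 (0.933) and PFDN2 for USP7 (0.959). Among the members, DAXX and PHF8 had r = 0.865, RNF168 and PHF8 0.790, TRIP12 and EP300 0.771, and TRIM27 and TRIP12 -0.831. These values describe 16 libraries that fall into 8 pairs and share their scaling, and they are no test.

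Other genes around USP7 and MDM2 were read from 3 lists, which share some genes. Of 23 further USP7 substrates and partners, 22 were tested in Jurkat and 6 passed in the pooled comparison, 2 up and 4 down, while 12 of 21 passed in HSB-2, 9 up and 3 down, beside 28% and 38.1% of all genes in Jurkat and HSB-2. The median log2 fold change over the list was 0.064 in Jurkat and -0.057 in HSB-2, beside 0.020 and -0.018 over all genes. In Jurkat RB1, the retinoblastoma cell cycle brake, rose (0.87, adjusted p = 3.0e-04; 268 CPM in scrambled, 472 with shRNA-4057 and 494 with shRNA-4058), USP11, a related deubiquitinase, fell (-0.61, adjusted p = 5.1e-04), and so did the receptor NOTCH1 (-0.43, adjusted p = 0.0069). Wild-type Jurkat cells had 376 CPM of RB1, between scrambled and the hairpins. FOXP3 passed there at under 1 CPM (0.88). In HSB-2 FOXP3, a regulatory T-cell factor, had 0.372 CPM in scrambled, 2.72 with shRNA-4057 and 3.05 with shRNA-4058 (2.96, adjusted p = 7.4e-06), and the repair factor XPC (0.51), the transcription factor FOXO3 (0.53) and the histone methyltransferase SUV39H1 (0.48) also rose. Wild-type HSB-2 cells had 1.01 CPM of FOXP3, above scrambled. All directions in these lists are against scrambled.

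The next list held 23 genes of the MDM2 pathway and the DNA damage response, of which 22 were tested in each line, with 6 called in Jurkat, 2 up and 4 down, and 8 in HSB-2, 4 up and 4 down, beside 28% and 38.1% of all genes, and medians of 0.0073 and 0.011 on the log2 scale. The pooled log2 fold change of MDM2 was 0.061 (SE 0.10, adjusted p = 0.67) in Jurkat and 0.18 (SE 0.051, adjusted p = 0.019) in HSB-2. CDKN2A, which encodes the MDM2 inhibitor ARF, had 0 counts in all 16 libraries. In Jurkat the ribosomal protein genes RPL5 (-0.66) and RPL11 (-0.46), whose products can bind MDM2, and the deacetylase HDAC1 (-0.21) fell. In HSB-2 the kinases HIPK2 (-0.67) and ATR (-0.56) fell and the acetyltransferase KAT5 (0.35) rose. KAT5 had 44.2 CPM in scrambled HSB-2 cells, 56.6 with shRNA-4057, 56.0 with shRNA-4058 and 54.3 in wild-type, near the hairpins. CREBBP, the paralogue of EP300, rose in both lines, with 97.3 CPM in scrambled, 156 with shRNA-4057 and 126 with shRNA-4058 in Jurkat (0.56, adjusted p = 0.010) and 142 CPM in scrambled, 215 with shRNA-4057 and 193 with shRNA-4058 in HSB-2 (0.52, adjusted p = 5.8e-04). Wild-type cells had 112 CPM of CREBBP in Jurkat and 189 CPM in HSB-2.

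The last list held 15 paralogues and pathway neighbours of the members, of which 3 of 15 were called in Jurkat, all higher, and 7 of 14 in HSB-2, 3 up and 4 down, beside 28% and 38.1% of all genes, with medians of 0.053 and -0.086. ATRX, which works with DAXX in placing histone H3.3, rose in Jurkat (0.40) and fell in HSB-2 (-0.30), with 93.5 CPM in scrambled, 118 with shRNA-4057 and 125 with shRNA-4058 in Jurkat and 127 CPM in scrambled, 106 with shRNA-4057 and 99.0 with shRNA-4058 in HSB-2. Wild-type cells had 116 CPM in Jurkat and 115 CPM in HSB-2. HERC2, a partner of RNF8 and RNF168 at DNA breaks, rose in Jurkat (0.34), with 132 CPM in scrambled, 175 with shRNA-4057 and 155 with shRNA-4058, while wild-type cells had 157 CPM, above the shRNA-4058 mean. In HSB-2 UBE2N, a ubiquitin-conjugating enzyme used with RNF8, fell (-0.42) and PHF2, a relative of PHF8, rose (0.27). For RNF8 and RNF169 no pooled change passed, with -0.019 (SE 0.065, adjusted p = 0.84) and -0.046 (SE 0.056, adjusted p = 0.56) in Jurkat and -0.053 (SE 0.066, adjusted p = 0.56) and -0.20 (SE 0.075, adjusted p = 0.070) in HSB-2.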

How the data were processed

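Ribosomal RNA-depleted, strand-marked total RNA libraries of Jurkat and HSB-2 cells were sequenced by the authors, and 16 libraries in 8 groups of 2 were used. The deposited values are raw read counts per gene. Per the submitters' processing notes CASAVA, STAR, BWA and HTSeq 0.6.1p1 were used with hg19. The study's methods describe alignment with BWA to the GRCh37-lite genome and to transcript sets, and counting per gene with HTSeq. The roles of CASAVA and STAR, the annotation release and the strand setting of the counting are not given in the sources used here. Gene symbols matched 55538 of 57820 IDs, all 8 members among them. The members and gene lists were chosen with earlier results of these data known.

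Counts were filtered with filterByExpr, scaled by TMM and tested in R 4.3.3 with the quasi-likelihood test of edgeR 4.0.16, two-sided, with Benjamini-Hochberg adjustment over all genes tested and a threshold of 0.05. Single hairpins, controls and line differences of single hairpins came from 1 fit of all 16 libraries (common biological variation 4.2%), pooled hairpins from the 6 libraries of a line, pooled line differences from 12, and slopes from the 8 of a line. SE is the log2 fold change divided by the root of F. Scripts were tested on simulated counts. Alternatives were DESeq2 1.42.0, its size factors in edgeR, no filter, a replicate block, an offset for GC content and exonic length, other controls and leaving out each library. The values with wild-type as the control for single hairpins and line differences, and the offset in slopes and pooled line differences, were chosen after the data were seen. Named genes are all members, USP7, and up to 4 genes per list and line with the smallest pooled p among those called and moved the same way by both hairpins; MDM2, CDKN2A, RNF8 and RNF169 were added for their role after their values were seen, and some genes are not reported here. Depth was 76602847 to 235467749 counts per library, and the 2 libraries of a group differed by more than counting noise.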

Additional observations from a re-analysis of the deposited data

Results flagged for a closer look

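These values were listed because the effect of USP7 shRNA against scrambled differed between the lines by a test of the difference itself (HSB-2 minus Jurkat, log2 scale, edgeR, adjusted p under 0.05), and no explanation was tested. In the pooled fit the difference was 0.52 for DAXX, 0.68 for RNF168 and 0.46 for PHF8. With shRNA-4057 it was 0.47 for DAXX, -0.19 for TRIP12, 0.63 for RNF168 and 0.35 for PHF8. With shRNA-4058 it was -0.15 for MDM4, 0.57 for DAXX, -0.31 for GMPS, -0.23 for TRIP12, 0.71 for RNF168 and 0.55 for PHF8. Among the 4 shRNA libraries of each line, no library of any member stood apart from the other 3 by the gap test used.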

How the results depend on the processing

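The numbers of members called in the pooled comparison moved with several settings. In Jurkat 4 of 8 became 2 without a filter on low counts, 1 with wild-type as control, 2 with scrambled and wild-type as control, and 7 with the hairpins fitted as separate groups. In HSB-2 5 of 8 became 3 with the offset for GC content and exonic length, 2 with wild-type as control and 3 with both controls. In HSB-2 the slope on USP7 was called for 1 member in place of 2 without a filter. With wild-type as control 4 in place of 7 were called for HSB-2 shRNA-4057, and 7 in place of 4 for the line difference of shRNA-4057. Leaving out 1 library gave 0 to 4 called in the pooled Jurkat comparison, 2 to 5 in HSB-2, 1 to 2 for the Jurkat slope, 0 to 2 for the HSB-2 slope, 2 to 4 for Jurkat scrambled against wild-type, and 2 to 5 between the hairpins in HSB-2. For the remaining comparisons these counts moved by at most 2.

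Among values that passed before or after the change of setting, directions turned as follows. With the offset, DAXX between the hairpins in HSB-2 became 0.077 (adjusted p = 0.034). With wild-type as control GMPS became 0.11 (adjusted p = 0.18) in pooled HSB-2, 0.15 (adjusted p = 0.012) with shRNA-4057 and 0.077 (adjusted p = 0.17) with shRNA-4058, TRIM27 0.15 and 0.14 in the same order, TRIP12 -0.076 with shRNA-4057 in HSB-2 and -0.061 with shRNA-4058 in Jurkat, EP300 -0.0091 and -0.17 with shRNA-4058 in Jurkat and HSB-2, and the MDM4 line difference 0.15 with shRNA-4057 and 0.0099 with shRNA-4058. The cause was not tested. Over all members, comparisons and settings, 667 values kept their side of the threshold, 44 no longer passed, 29 came to pass and 12 turned, and with 1 library left out these numbers were 1658, 85, 17 and 0. A change of sign counted as a turn only where the value passed before or after it. Values that passed in neither could change sign uncounted. TRIP12 with shRNA-4058 in HSB-2 went from -0.053 to 0.024 with the offset, and ran from -0.077 to 0.044 with 1 library left out. Over all genes, wild-type as control called 1798 genes in place of 5965 in Jurkat and 5010 in place of 8049 in HSB-2, and 4338 in place of 8559 for the pooled line difference, while hairpins as separate groups called 11837 and 12077.

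Deviations of libraries with the same replicate number correlated at 0.43 to 0.47 among wild-type, scrambled and shRNA-4058 in Jurkat, while shRNA-4057 ran opposite to these (r = -0.53 to -0.39), and HSB-2 pairs had r of -0.45 to 0.28. Since not every pair was over 0.1, the numbers were not taken to pair the samples. With a replicate block, 2 members in place of 4 were called in pooled Jurkat, without MDM4, at -0.18 (adjusted p = 0.11), and DAXX, at -0.20 (adjusted p = 0.098). GMPS was -0.18 (adjusted p = 0.068) in pooled HSB-2, and 1 member in place of 2 was called for the HSB-2 slope, without RNF168, at -0.43 (adjusted p = 0.077), where all genes called went from 4142 to 2669. At the depth of these libraries counting error is small, and the 2 libraries per group set the precision.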
